A study of Mus musculus with 12 samples.

Results

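The guanylate-binding and p200 interferon-inducible genes described here are 7 mouse genes of 2 families, followed across wildtype and Rb null fibroblasts with and without cisplatin. The guanylate-binding genes are Gbp2, Gbp2b (formerly Gbp1) and Gbp3, and the p200 genes are Ifi202b, Ifi203, Ifi204 and Ifi205. They were chosen by a measured value, their strong rise in cisplatin-treated Rb null cells. Every difference of the members that uses those cells is therefore given as a description, without a test. Genes that are not members were tested there too. A member was followed through probe sets that the platform annotation gives to that gene alone. This left 5 of the 7 genes with 6 probe sets, of 12393 genes with such a probe set on the array. Ifi203 and Ifi205 were represented only on probe sets that are shared with related genes. Of the 5 genes, 4 passed the filter on weak probe sets, and Ifi204 did not. Gbp2, Gbp2b and Gbp3 passed it only through their signal in cisplatin-treated Rb null cells, and with a filter set on the other 9 arrays Ifi202b alone passed.

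The cells were mouse embryonic fibroblasts (MEFs), connective tissue cells taken from embryos of day 13.5 and grown to passage 2. They carried the normal Rb1 gene (wildtype) or lacked it (Rb null), and were left untreated or exposed for 24 h to cisplatin (16 µM), a platinum drug that binds and crosslinks DNA. The 4 groups were untreated wildtype, untreated Rb null, cisplatin-treated wildtype and cisplatin-treated Rb null cells, with 3 Affymetrix arrays each and 6 µg of RNA per array. The design text describes 4 RNA samples, each hybridized in triplicate, and the p-values may then cover nothing but the spread of repeat hybridizations. The labels name no mouse strain and no number of embryos.

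Interferons bind receptors that act through JAK kinases and STAT transcription factors. These factors act at short promoter motifs, among them the interferon-stimulated response element (ISRE) and the gamma-activated site (GAS). Guanylate-binding proteins are large GTPases that assemble on the vacuoles and membranes of microbes inside cells and are among the genes most strongly induced by interferon-gamma. The p200 proteins, also called PYHIN or HIN-200 proteins, bind DNA through a HIN domain. Several of them have been studied as sensors of DNA, and Ifi204 and Ifi202b also for effects on cell growth, which include binding of p204 to the Rb protein.

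The arrays had been scaled to one trimmed mean, 500.1 to 500.2, and arrays of 1 group correlated at 0.981 to 0.992 over the probe sets, against 0.806 to 0.952 between groups. Rb1 gave a mean signal of 459.7 in untreated and 382.9 in cisplatin-treated wildtype cells, and of 93.97 and 89.63 in the Rb null groups, in the order the labels give. The untreated wildtype arrays stood apart in sex-linked transcripts. Their mean Xist signal was 132.2, against 2379 to 3443 in the other groups, and their mean Eif2s3y signal was 478.1, against 1.267 to 6.633. Both tested comparisons of the members use these arrays and have no value without them, and the part of this difference in them was not tested. The difference cannot be told apart from genotype in untreated cells, or from cisplatin in wildtype cells. A rise or fall with cisplatin in wildtype cells is here a difference between the treated and untreated arrays.

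Gbp3, Gbp2b and Gbp2 lie side by side on chromosome 3, with 1 long non-coding RNA gene between Gbp3 and Gbp2b. The 250 bases before their transcript starts are shown because these 3 genes reached their highest signal together in the cisplatin-treated Rb null cells, and all 3 hold the core of an ISRE there. Capitals mark the core, which is GAAA, any 2 bases and again GAAA, searched on both strands, and in all 3 genes it lies on the strand opposite to the one printed. The sequences are those of RefSeq on build GRCm38.p6, at chr3:142620413-142620662 for Gbp2, chr3:142594597-142594846 for Gbp2b and chr3:142559794-142560043 for the first of the starts of Gbp3, all on the plus strand.
Gbp2: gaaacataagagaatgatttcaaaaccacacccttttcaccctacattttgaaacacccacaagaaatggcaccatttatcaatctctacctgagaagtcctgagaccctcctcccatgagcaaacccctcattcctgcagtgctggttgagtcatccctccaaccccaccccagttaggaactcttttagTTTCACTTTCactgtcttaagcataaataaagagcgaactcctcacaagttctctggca
Gbp2b: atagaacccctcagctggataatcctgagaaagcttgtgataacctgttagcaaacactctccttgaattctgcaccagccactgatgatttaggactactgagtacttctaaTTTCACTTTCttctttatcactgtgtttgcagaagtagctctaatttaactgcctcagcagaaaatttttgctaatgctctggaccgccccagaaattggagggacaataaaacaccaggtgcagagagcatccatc
Gbp3: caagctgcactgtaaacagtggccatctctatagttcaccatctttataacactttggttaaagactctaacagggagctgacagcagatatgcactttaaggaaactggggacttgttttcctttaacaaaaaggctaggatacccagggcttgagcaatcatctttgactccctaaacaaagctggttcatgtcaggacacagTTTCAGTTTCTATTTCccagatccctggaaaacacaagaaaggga
The match lay at bases -59 to -50 from the start in Gbp2 and at -137 to -128 in Gbp2b. Gbp3 held a pair of overlapping matches, at -45 to -36 and -39 to -30. A match of letters does not show that a factor binds.

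Gbp2 was even in 3 groups and about 5 times as high in the cisplatin-treated Rb null cells. Its probe set 1418240_at gave 116.3, 107.2 and 80.9 in untreated wildtype cells, 114.0, 95.7 and 116.5 in untreated Rb null and 92.0, 102.1 and 100.9 in cisplatin-treated wildtype cells. In cisplatin-treated Rb null cells it gave 535.4, 530.2 and 504.8. The first 3 groups overlapped with each other and lay below every array of the last. Its mean was 523.5 ± 16.4 (SD, n = 3) there, against 108.7 ± 11.4 in untreated Rb null cells, a ratio of 4.81. As with every gene here, more RNA per cell and more cells that express the gene cannot be told apart in such bulk samples. A second probe set of Gbp2, 1435906_x_at, which can cross-hybridize, ran from 49.7 to 119.1 in the first 3 groups and gave 452.6, 504.7 and 273.7 in the last.

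Gbp3 showed the same pattern with more spread. Its signal was 44.3, 81.6 and 96.5 in untreated wildtype cells, 67.7, 54.0 and 80.4 in untreated Rb null and 46.6, 86.3 and 95.8 in cisplatin-treated wildtype cells. In cisplatin-treated Rb null cells it was 499.7, 403.6 and 617.0. The first 3 groups did not differ beyond their spread, and the lowest array of the last stood above all of them. The mean there was 507 ± 107 (SD, n = 3), against 67.4 ± 13.2 in untreated Rb null cells.

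Gbp2b differed from the other guanylate-binding members in that its groups were all apart. It gave 217.5, 191.2 and 229.4 in untreated wildtype cells and 143.9, 121.4 and 147.6 in untreated Rb null cells. After cisplatin it gave 31.1, 26.4 and 39.8 in wildtype and 359.1, 346.5 and 410.6 in Rb null cells. The order of the levels was cisplatin-treated Rb null, untreated wildtype, untreated Rb null and cisplatin-treated wildtype, with no overlap between neighbours. Cisplatin thus went with the lowest Gbp2b level of the study in wildtype cells and with the highest in Rb null cells.

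**Figure D1:**
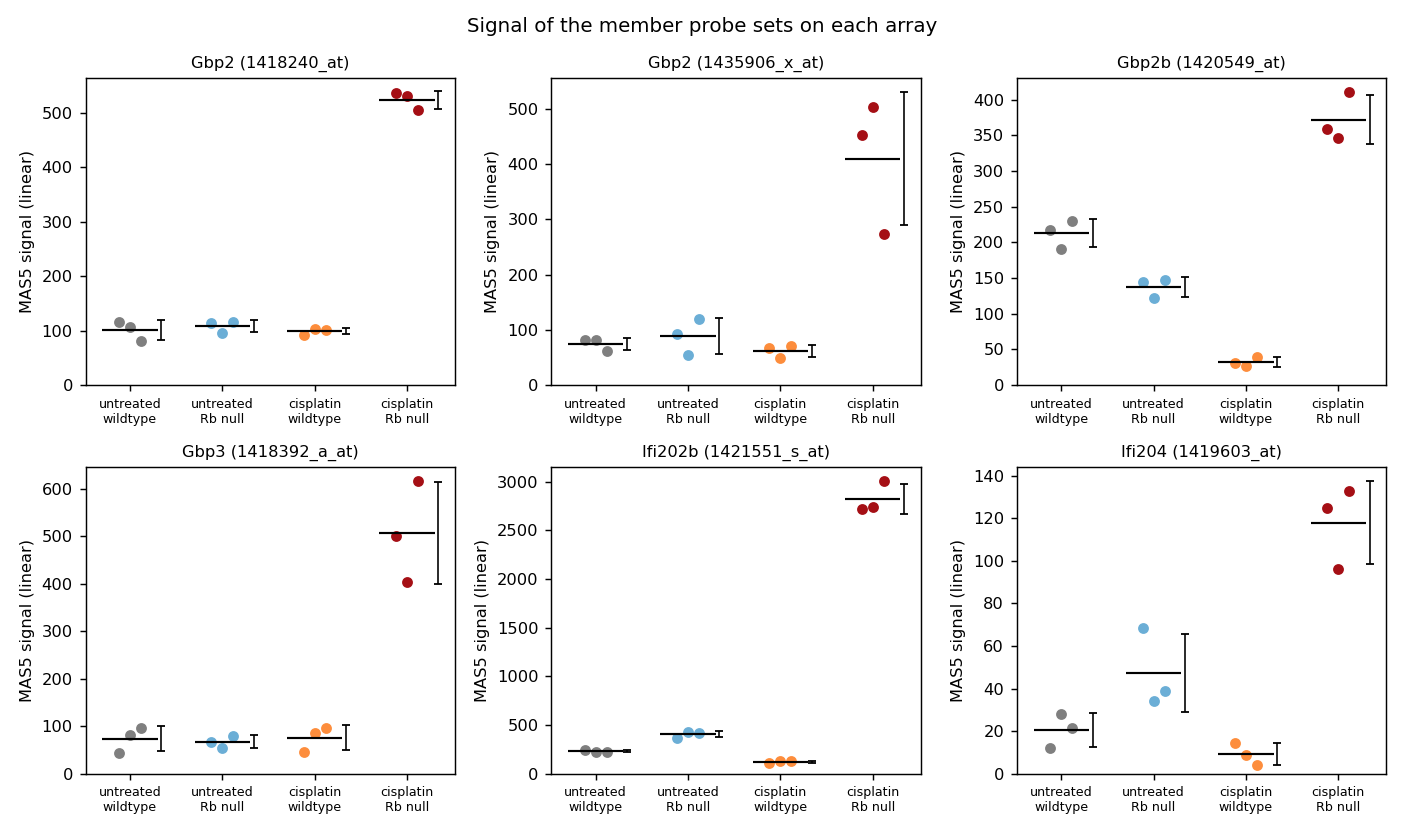
Signal of each member probe set (linear MAS5 signal, vertical axis from 0) on the 3 arrays of each of the 4 groups. Points are arrays, horizontal lines are group means and the bars to their right are ± SD (n = 3); the cisplatin-treated Rb null arrays lie above all others in every panel, and Gbp2b and Ifi202b are lowest in cisplatin-treated wildtype cells.

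The p200 members lie on chromosome 1 in a run of related genes and pseudogenes, in the order Ifi204, Mndal, Ifi211, Ifi203, Ifi202b and Ifi205. Near-identical copies in this run can share probes, so the attribution of their signals to single genes is uncertain, also for the Ifi202b probe set, whose suffix (_s_at) marks probes common to several transcripts. Ifi202b is shown because it had the largest difference of the members between the genotypes after cisplatin. RefSeq places the 250 bases before its start at chr1:173982845-173983094 on the minus strand of GRCm38.p6. Capitals mark its single match to the GAS motif TTCNNNGAA, at -148 to -140, and it held no match to the ISRE core.
Ifi202b: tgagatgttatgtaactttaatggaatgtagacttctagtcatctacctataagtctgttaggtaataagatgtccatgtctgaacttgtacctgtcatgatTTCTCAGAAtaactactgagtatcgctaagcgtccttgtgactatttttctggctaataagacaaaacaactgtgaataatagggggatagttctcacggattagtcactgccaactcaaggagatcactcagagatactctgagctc

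Over the 6 members with a RefSeq promoter, the ISRE core was found in 5 (Gbp2, Gbp2b, Gbp3, Ifi203 and Ifi205) within 250 bases before to 50 after a start, against 3.99% of 27025 genes with such a window. The GAS motif was found in 1 (Ifi202b), against 9.55% of genes. The E2F motif, TTTGGCGC or TTTCGCGC on either strand, was found in 0 of 6, against 0.929% of genes. The core sits close to the start in Gbp2, Gbp3 and Ifi203 (-35 to -26) and farther away in Gbp2b and Ifi205 (-134 to -125, with another match at 24 to 33). The members are related genes in a pair of clusters, so their promoters are not independent of each other.

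**Figure D2:**
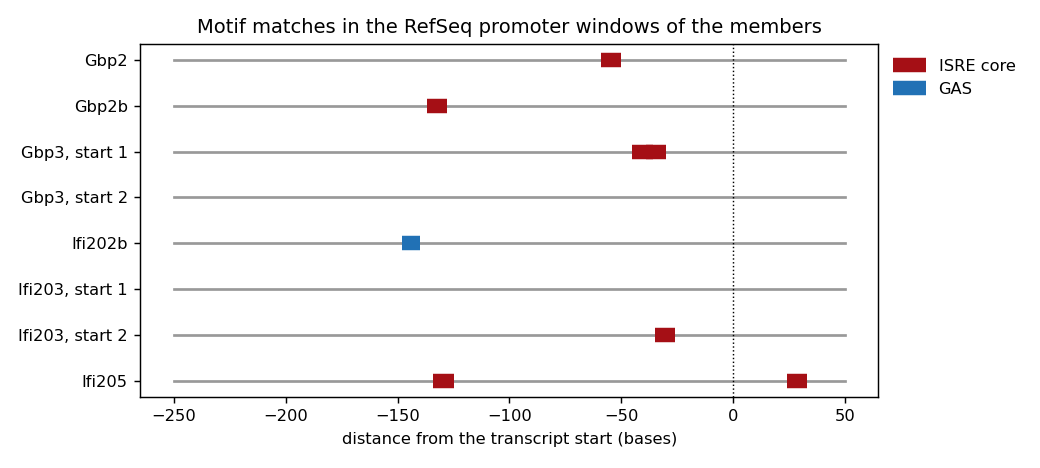
Positions of motif matches in the RefSeq windows of 6 members, as distance in bases from the transcript start (horizontal axis, 0 at the dotted line); Gbp3 and Ifi203 have more than 1 start. Red blocks are the ISRE core and blue blocks the GAS motif; 5 of the 6 members have a red block and Ifi202b has the only blue one.

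Ifi202b gave the steadiest values of the members. Its signal was 242.3, 225.9 and 227.2 in untreated wildtype cells and 368.8, 425.0 and 419.3 in untreated Rb null cells. After cisplatin it was 110.2, 125.8 and 128.3 in wildtype and 2718.3, 2745.0 and 3006.1 in Rb null cells. All groups were apart from their neighbours, in the order cisplatin-treated Rb null, untreated Rb null, untreated wildtype and cisplatin-treated wildtype. The mean of 2823 ± 159 (SD, n = 3) in cisplatin-treated Rb null cells was 6.98 times that of 404 ± 30.9 in untreated Rb null cells. In wildtype cells the mean was 232 ± 9.12 without and 121 ± 9.81 with cisplatin.

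Ifi204 followed the order of Ifi202b at signals mostly below the filter (a signal of about 104.6). It gave 11.9, 28.0 and 21.7 in untreated wildtype cells, 68.2, 34.3 and 39.0 in untreated Rb null and 14.6, 8.8 and 4.3 in cisplatin-treated wildtype cells. In cisplatin-treated Rb null cells it gave 124.7, 96.0 and 133.0. The cisplatin-treated Rb null arrays were apart from all others, untreated Rb null arrays were apart from the wildtype ones, and the wildtype groups overlapped. No detection calls accompany the values used here, so whether the wildtype signals differ from background is not known.

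Probe sets shared by several p200 genes did not all follow this pattern, and no gene is named from them. Those whose annotation includes Ifi203 are 1451567_a_at, 1448775_at and 1425008_a_at. The first gave 9.9, 16.0 and 21.6 in untreated wildtype cells, 53.8, 70.5 and 61.7 in untreated Rb null, 28.4, 31.1 and 22.7 in cisplatin-treated wildtype and 319.0, 276.8 and 346.9 in cisplatin-treated Rb null cells. It was therefore highest where the single-gene members were highest. The second ran from 137.4 to 166.5 in cisplatin-treated Rb null cells and from 9.9 to 90.8 in the other groups, and the third was at most 41.2 on any array, with overlapping groups.

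Those whose annotation includes Ifi205 had their highest mean in cisplatin-treated wildtype cells. Probe set 1452349_x_at, annotated to Ifi211 and Ifi205, gave 51.2, 59.1 and 42.8 in untreated wildtype cells and 63.8, 48.0 and 35.6 in untreated Rb null cells. After cisplatin it gave 680.8, 762.7 and 828.7 in wildtype but 82.8, 120.0 and 99.8 in Rb null cells. It rose in wildtype cells by 3.65 ± 0.20 on the log2 scale, or 12.5-fold (adjusted p = 1.26e-09, limma on the 13575 probe sets that passed the filter). Probe set 1452348_s_at, annotated to Mndal, Ifi211, Ifi205 and Ifi204, gave 44.9, 36.7 and 21.6 in untreated wildtype cells and 200.8, 156.9 and 183.9 in cisplatin-treated wildtype cells. It rose by 2.12 ± 0.26 on the log2 scale (adjusted p = 1.95e-05, limma without the filter). In Rb null cells it gave 93.7, 55.6 and 94.7 untreated and 163.9, 110.3 and 145.0 with cisplatin. The log2 difference there was 0.73 ± 0.26, without a test because it uses the cells by which the members were chosen. The cisplatin-treated arrays of this probe set overlapped between genotypes (log2 -0.36), also given without a test. For cisplatin in wildtype cells 26.7% of probe sets were called with the filter and 21.7% of 22626 without it. A strong rise of Ifi205 in cisplatin-treated Rb null cells is thus not what these shared probe sets show, though their signals cannot be assigned to single genes.

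**Figure D3:**
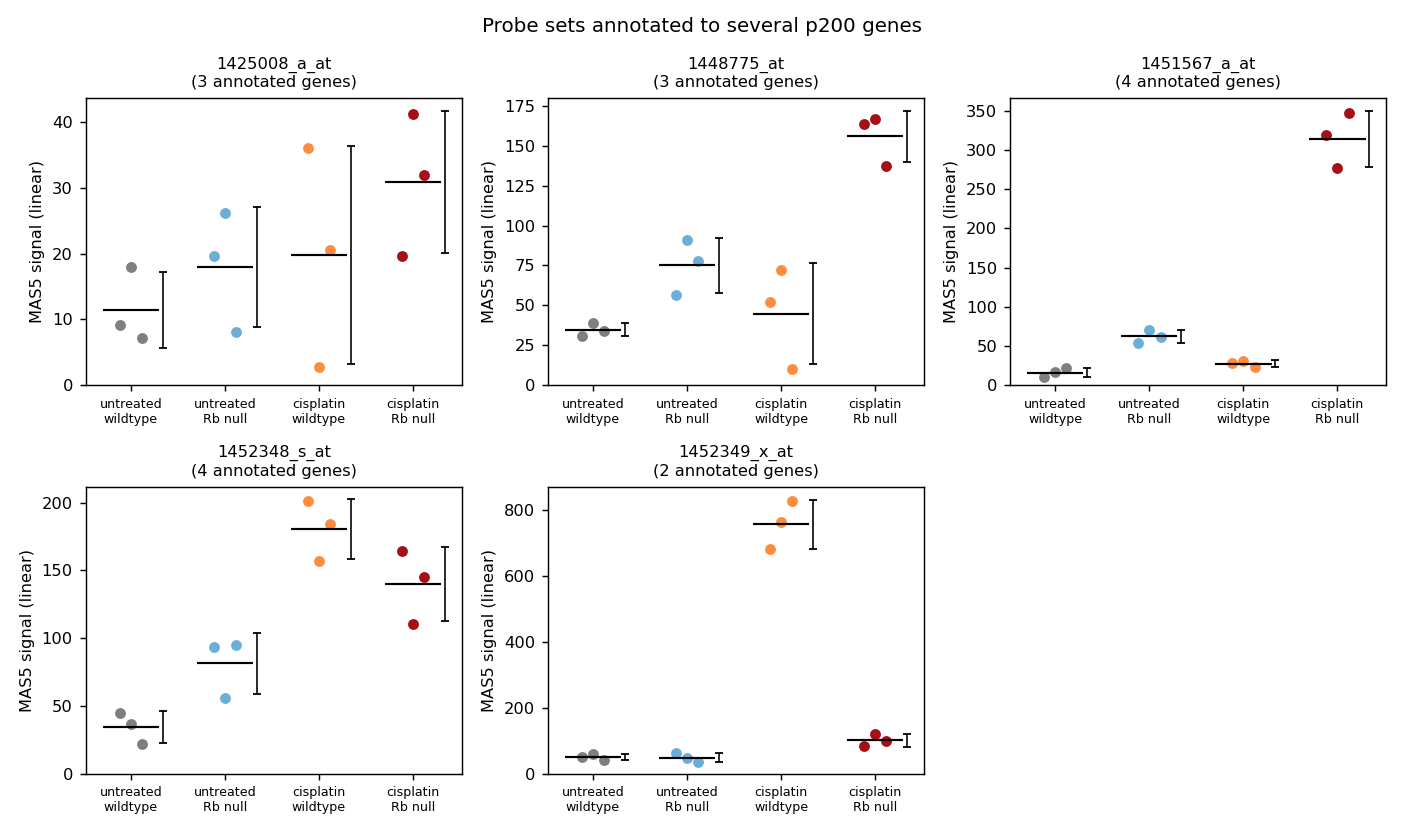
Signal (linear MAS5 signal, vertical axis from 0) of the 5 probe sets annotated to several p200 genes, on the 3 arrays of each group; lines are means and bars ± SD (n = 3). Probe set 1451567_a_at is highest in cisplatin-treated Rb null cells (276.8 to 346.9), whereas 1452349_x_at is highest in cisplatin-treated wildtype cells (680.8 to 828.7).

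The members were tested where the choice had not used the data, the first comparison being that of the genotypes without cisplatin. Values were compared as log2(signal + 10.4), which understates changes of weak genes, and a call required at least a 1.5-fold difference with an adjusted p (Benjamini-Hochberg) below 0.05. The filtered fit, in which 12.4% of all 13575 probe sets were called (7.68% higher and 4.69% lower), called Ifi202b higher and Gbp2b lower. Since Gbp2, Gbp2b and Gbp3 entered it through the group that chose them, the values of all members but Ifi202b are given from a fit without the filter, where 9.3% of 22626 probe sets were called. Ifi202b was higher by 0.77 ± 0.09 (SE) on the log2 scale, or 1.71-fold, with the arrays apart (adjusted p = 1.28e-05, limma). Gbp2b was lower there, with a log2 difference of -0.59, or 1.51-fold, at the edge of the fold minimum (adjusted p = 0.0183, limma without the filter). Its call was lost on the fold minimum without untreated Rb null replicate 2 (log2 -0.51), without untreated wildtype replicate 1 (-0.57) and without untreated wildtype replicate 3 (-0.54), and also with a pseudocount of 45.8 (-0.495). Gbp2 had a log2 difference of 0.10 and Gbp3 one of -0.08 (adjusted p = 0.739 and 0.907, limma without the filter), and both changed sign under some alternatives. Ifi204 had a log2 difference of 0.89 ± 0.30 and was not called (adjusted p = 0.0512, limma), but called after quantile normalization (0.95) or median centring (0.85). It was also called without untreated wildtype replicate 2 (1.06) and without cisplatin-treated wildtype replicate a or c (0.89 each).

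The second tested comparison set cisplatin-treated against untreated wildtype cells. These groups also differed in Xist and Eif2s3y, so treatment and that difference cannot be told apart. The comparison shares the untreated wildtype arrays with the first, so the outcomes are not independent. The filtered fit, in which 26.7% of all probe sets were called (13.5% higher and 13.2% lower), called Gbp2b and Ifi202b lower; values are again without the filter for all but Ifi202b, where 21.7% were called. Gbp2b fell by 2.39 on the log2 scale, or 5.24-fold (adjusted p = 7.64e-08, limma without the filter). Ifi202b fell by 0.88 (SE 0.09), or 1.84-fold (adjusted p = 1.36e-06, limma). Gbp2 had a log2 difference of -0.03 and Gbp3 one of 0.04 (adjusted p = 0.913 and 0.938, limma without the filter). For Ifi204 it was -0.65 ± 0.30 (adjusted p = 0.106, limma), called only without untreated wildtype replicate 1 (-0.87, adjusted p = 0.0499).

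The comparisons by which the members were chosen are given as values only. Between cisplatin-treated and untreated Rb null cells, where 15.8% of all probe sets were called higher, the log2 difference was 2.17 ± 0.14 for Gbp2, 1.37 ± 0.15 for Gbp2b and 2.73 ± 0.28 for Gbp3. It was 2.77 ± 0.09 for Ifi202b and 1.19 ± 0.30 for Ifi204. The median of these 5 was 2.17, beside -0.02 over all tested probe sets. Between Rb null and wildtype cells after cisplatin, where 9.21% were called higher, the differences ran from 2.30 ± 0.14 for Gbp2 to 4.43 ± 0.09 for Ifi202b, with Gbp3 at 2.61, Ifi204 at 2.73 and Gbp2b at 3.17. For Gbp2 and Gbp3 both differences were of like size, since the other groups were even. For Gbp2b, Ifi202b and Ifi204 the genotype difference was the larger. The mean of each in wildtype cells was lower with cisplatin than without, and those of Ifi202b and Ifi204 were also higher in untreated Rb null than in untreated wildtype cells.

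**Figure D4:**
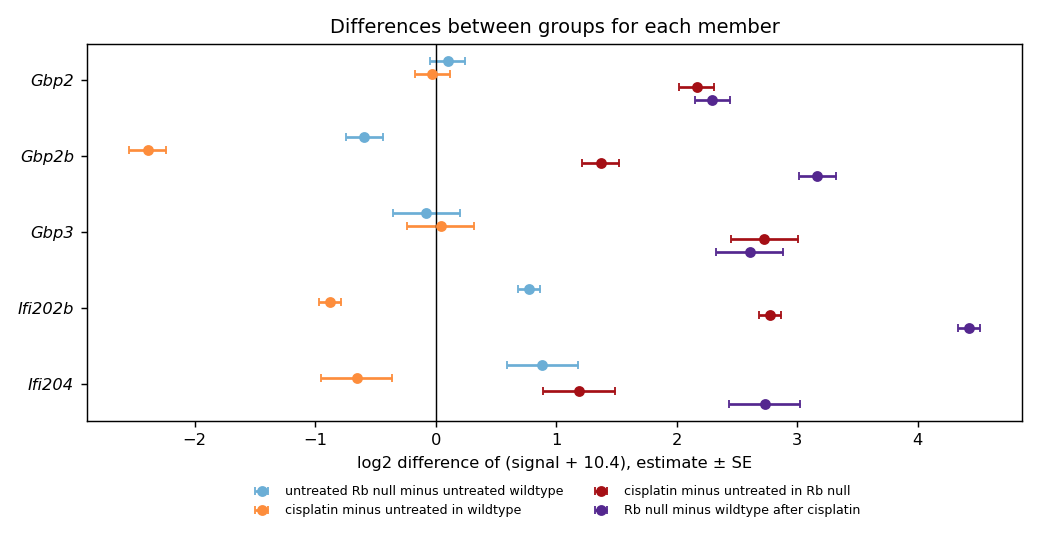
Log2 difference of signal + 10.4 (horizontal axis) for the 5 members with a single-gene probe set in 4 comparisons; points are estimates and bars ± SE from the fit of 12 arrays. Untreated genotype (light blue) and wildtype cisplatin (orange) differences lie at or below 0.89, and those that use cisplatin-treated Rb null cells (red and purple) lie between 1.19 and 4.43.

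Close relatives of the members gave weak signals. The 3 further guanylate-binding genes with a single-gene probe set (Gbp6, Gbp7 and Gbp8) and the 3 further p200 genes (Aim2, Ifi209 and Mndal) were all under the filter. Gbp7 gave means of 99.0 ± 14.3, 109 ± 17.5, 73.8 ± 15.5 and 97.7 ± 9.82 (SD, n = 3) in untreated wildtype, untreated Rb null, cisplatin-treated wildtype and cisplatin-treated Rb null cells. It did not share the high level of Gbp2, Gbp2b and Gbp3 in the last. Mndal, a p200 gene, had means of 27.5 ± 12.4, 31.9 ± 7.81, 55.0 ± 4.47 and 92.3 ± 43.9, and its cisplatin-treated Rb null arrays (63.0 to 142.7) lay above all others (at most 58.8). Ifi209 had its highest mean, 99.7, in cisplatin-treated wildtype cells, and Aim2, Gbp6 and Gbp8 had means of at most 8.77 in every group. The immunity-related GTPases are another family of interferon-induced GTPases. Among the 4 tested, Igtp (Irgm3) rose with cisplatin by 1.06 ± 0.17 in wildtype and by 2.41 ± 0.17 in Rb null cells on the log2 scale (adjusted p = 0.000104 and 1.57e-08, limma). Its means were 139 ± 36.9, 135 ± 30.4, 296 ± 19.7 and 752 ± 65.4 (SD, n = 3) in the same order of groups. Ifi47 fell by 0.83 in Rb null cells (adjusted p = 0.000567, limma), and Irgm1 and Irgm2 were not called in either genotype.

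The rest of the interferon pathway was mixed. With cisplatin, 13.5% of all tested probe sets were called higher and 13.2% lower in wildtype cells, and 15.8% and 20.9% in Rb null cells. Of 12 listed interferons and interferon-inducing interleukins with a probe set, only Ifnz and Il18 passed the filter. Ifnz, interferon-zeta, rose with cisplatin in wildtype cells by 0.78 ± 0.21 on the log2 scale (adjusted p = 0.0052, limma), with means of 125.4 ± 33.2 untreated and 219.1 ± 22.8 treated (SD, n = 3). In Rb null cells its log2 difference was 0.57 ± 0.21, under the fold minimum, and Il18 was not called in either genotype. The means of Ifnb1, interferon-beta, ran from 55.3 to 70.9 over the 4 groups, and those of Ifng, interferon-gamma, from 13.1 to 29.5. Among 9 tested genes of the receptors and JAK-STAT proteins, 0 were called in wildtype cells after cisplatin. In Rb null cells 1 rose (Ifngr2, a receptor chain, by 0.80 ± 0.08) and 2 fell (the kinase Jak1 by 1.02, the factor Stat2 by 0.66, on the log2 scale). None of the 4 tested interferon regulatory factors was called in either genotype (limma). For Irf1, a factor that acts on guanylate-binding genes, cisplatin gave a log2 difference of 0.35 ± 0.09 in wildtype cells and one of 0.43 ± 0.09 in Rb null cells, at adjusted p = 0.00318 and 0.000498 (limma) but under the fold minimum.

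Known interferon targets moved both ways. Of 13 tested type I interferon response genes, 5 rose and 0 fell with cisplatin in wildtype cells, and 6 rose and 3 fell in Rb null cells. The shares of all tested probe sets were 13.5% higher and 13.2% lower in wildtype cells, and 15.8% and 20.9% in Rb null cells. No count in this paragraph was tested against them. In Rb null cells the largest rises were those of Ifitm1, which blocks entry of viruses (log2 1.95 ± 0.17), Trim21, a cytosolic antibody receptor (1.66 ± 0.11), and Ifit1, which binds foreign RNA (1.25 ± 0.19). Bst2, the tether of budding viruses, fell by 0.97, Oas1a, a sensor of double-stranded RNA, by 0.83 and Parp9 by 0.68. Of 12 tested genes of the interferon-gamma response and MHC class I, 2 rose (Tap1, the peptide transporter, and H2-D1) and 1 fell (Cd74) in wildtype cells, and 1 rose (Tap1, log2 2.25 ± 0.10) in Rb null cells. Of 6 tested negative regulators 4 rose in both genotypes, namely Socs3, Cish, Usp18 and Ptpn2.

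Beside all probe sets, a larger share of the 59 tested interferon genes other than the members was called higher and a smaller share lower in each comparison of 2 groups. Between untreated genotypes, however, the higher share was near that of all probe sets. In Rb null cells, 14 rose (23.7%, beside 15.8% of all probe sets) and 6 fell with cisplatin (10.2%, beside 20.9%), or 33.9% called beside 36.7%. The counts were also 14 and 6 in a fit of these 2 groups alone. That fit keeps the log2 differences and the filter, and only its estimate of the spread can change. It is therefore no check on the untreated wildtype arrays. With median-centred arrays, which move the median of all probe sets in this comparison from -0.02 to 0.12, the counts were 21 higher and 4 lower, and after quantile normalization 19 and 4. In wildtype cells 16 rose (27.1%, beside 13.5%) and 1 fell (1.69%, beside 13.2%). Between untreated genotypes 5 were higher in Rb null cells (8.47%, beside 7.68%) and 0 lower (0%, beside 4.69%), or 8.47% beside 12.4% in either direction. The 5 were Rtp4, Ifit2, H2-D1, Tap1 and Ptpn2. Between Rb null and wildtype cells after cisplatin, 10 were higher (16.9%, beside 9.21%) and 6 lower (10.2%, beside 12.9%), where 22.1% of all probe sets were called. For the cisplatin effect in Rb null minus that in wildtype cells, 6 were higher and 8 lower, or 23.7% called beside 23.1%. The median log2 value was -0.14 there, beside -0.07 over all tested probe sets. No test of these lists was made, and they were written with earlier results of these data known.

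Of the 45 listed interferon genes under the filter, 5 had every cisplatin-treated Rb null array above all others (Cd274, Cxcl10, Ikbke, Mndal and Psmb9) and 1 had them below all others (Ifna4). Without the filter, where 28.7% of probe sets were called for cisplatin in Rb null cells, 9 of the 45 were called higher and 5 lower. The next 3 genes were named after their values were seen. Cxcl10, a chemokine, had means of 58.8 ± 20.2, 34.8 ± 25.2, 80.6 ± 10.1 and 329.7 ± 38.9 (SD, n = 3) in untreated wildtype, untreated Rb null, cisplatin-treated wildtype and cisplatin-treated Rb null cells. Cd274, the checkpoint ligand PD-L1, had means of 53.1 ± 10.9, 43.7 ± 2.55, 74.2 ± 14.2 and 222.3 ± 29.5. Ifi27l2a, an interferon-induced gene, went the other way, with means of 40.6 ± 21.8, 321.7 ± 69.4, 105.0 ± 26.3 and 63.6 ± 19.5. Among 14 tested targets of NF-kB, a factor that shares many immune genes with the interferon pathway, 9 rose and 2 fell in Rb null cells and 5 rose and 2 fell in wildtype cells. Of these, the chemokine Cxcl1 rose by 3.55 ± 0.14 in Rb null and 1.37 ± 0.14 in wildtype cells, and the adhesion molecule Icam1 by 3.13 ± 0.12 and 3.06 ± 0.12. Ccl5, another chemokine, fell by 3.02 in wildtype cells and by 0.99 in Rb null cells on the log2 scale. Of 17 tested p53 targets, 12 rose in Rb null and 11 in wildtype cells, with 0 lower in both. Beside these NF-kB and p53 counts, 15.8% of all tested probe sets were called higher and 20.9% lower in Rb null cells. In wildtype cells the shares were 13.5% and 13.2%.

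**Figure D5:**
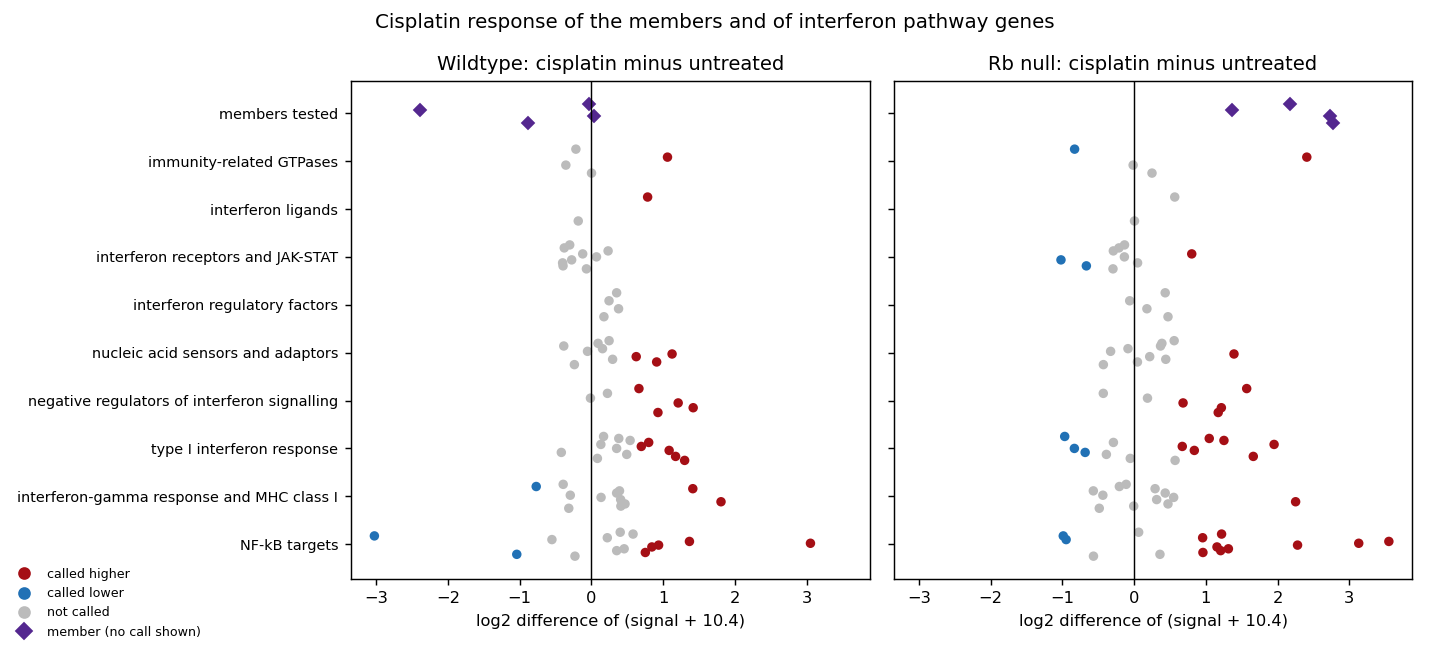
Log2 difference of signal + 10.4 between cisplatin-treated and untreated cells (horizontal axis) for each tested gene of the interferon and NF-kB lists (rows), in wildtype (left) and Rb null cells (right). Red points were called higher, blue lower and grey not called, and the purple diamonds are the 4 tested members. In Rb null cells the members lie between 1.37 and 2.77, and most genes of the other interferon lists lie nearer to 0. The members were chosen for their rise in these cells, so this distance was set by the choice. Gbp2, Gbp2b and Gbp3 also passed the filter only through their signal in the cisplatin-treated Rb null cells.

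Guanylate-binding and p200 genes are also active in macrophages, so markers of other cells were compared. No marker on any of these lists was at 0 in any group, which without detection calls does not show that it was expressed. The summed signal of 21 macrophage and leukocyte markers was 6628 to 7034 in untreated wildtype and 8597 to 9268 in untreated Rb null cells. It was 12950 to 13550 in cisplatin-treated wildtype and 6774 to 6980 in cisplatin-treated Rb null cells. The sum was highest in cisplatin-treated wildtype cells. Strong genes weigh most in it, such as Lyz2, with means of 1124, 2207, 4174 and 1087 in this order of groups. Of 18 tested, 12 were lower and 0 higher in Rb null than in wildtype cells after cisplatin, beside 12.9% lower and 9.21% higher of all tested probe sets. Adgre1 (F4/80) had means of 361.6, 554.6, 273.0 and 125.2 in this order of groups, Ptprc (CD45) 166.2, 166.0, 115.5 and 55.2, and Csf1r 1274, 1440, 1527 and 1688. Cd14 had means of 445.4, 683.7, 1568 and 1712, so Csf1r and Cd14 had their highest means in cisplatin-treated Rb null cells. The part of these markers in the members' values was not tested.

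The fibroblast markers gave high signals in every group, with Col1a1 means of 10360, 9411, 4856 and 2658 in the same order. Of 15 fibroblast markers, 13, 15, 15 and 14 had means above the filter signal in this order of groups. The summed signal of all 15 was 87840 to 92050 in untreated wildtype cells, 85470 to 88530 in untreated Rb null, 72930 to 76270 in cisplatin-treated wildtype and 55650 to 56240 in cisplatin-treated Rb null cells. This sum was lowest in the group where the members were highest, and its part in the members' values was not tested. The defining markers of endothelial cells (Pecam1, Cdh5) and epithelial cells (Epcam, Cdh1) had means under the filter signal in all groups. Other markers on these lists did not. The summed signal of 8 epithelial markers was 673.9 to 950.3, 543.9 to 749.2, 1411 to 1610 and 1440 to 1595 in the same order of groups, and of 3 tested Krt18 and Krt19 rose with cisplatin in both genotypes. Krt19 was highest in cisplatin-treated Rb null cells, with means of 215.8, 156.4, 541.3 and 869. The summed signal of 10 endothelial markers was 1517 to 1960, 1455 to 1675, 1004 to 1138 and 1060 to 1197, and Flt1 fell with cisplatin in both genotypes. The part of these markers in the members' values was not tested.

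Among all 7822 ranked genes, those whose profile over the 12 arrays was most like the mean profile of Gbp2, Gbp2b and Gbp3 were Egln3 (r = 0.981), Cth (0.976), Mlec (0.974), Adat2 (0.964) and Clasrp (0.963). The profile of Ifi202b was most like those of Adat2 (r = 0.989), Tmcc2 (0.981), Sdc4 (0.974), Ubqln4 (0.968) and Rabggtb (0.967). These are descriptions, since the 12 arrays form 4 groups and the high group sets r. With rank correlation 0 of the first 5 and 1 of the second 5 were named again. None of these genes was on an interferon list. Among the members themselves r over the 12 arrays ran from 0.624 between Gbp2b and Gbp3 to 0.945 between Gbp2 and Gbp3.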

How the data were processed

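RNA of 12 samples was measured on Affymetrix arrays. The deposited intensities, 1 per probe set, were made by the authors with MAS5 per the submitters' processing notes; its version and detection calls are not given in the sources used here. The members and gene lists were chosen with earlier results of these data known.

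Groups came from the labels. Intensities were converted to log2 after adding 10.4, their 10th percentile. Of 22690 probe sets, 64 controls were left out, as were 40% of the rest with the lowest mean, leaving 13575. Group means were estimated from the 12 arrays together in limma (version 3.58.1; R 4.3.3; eBayes with a trend, two-sided tests, Benjamini-Hochberg adjustment over all probe sets tested), and the model was tested on simulated data. Symbols were updated through Entrez IDs to the RefSeq table of GRCm38.p6: 20380 probe sets had 1 symbol, 691 several and 1555 none. Of several probe sets of a gene, one without a cross-hybridization suffix was preferred, then the one with the highest mean. Named genes are all members, up to 4 called genes of a list with the largest change (every called gene where 5 or fewer; a selection is given), the 5 genes most like each family, and Rb1. No depth applies to arrays; their number limits the precision. Motifs were searched in RefSeq promoters, 250 bases before to 50 after each start. Alternatives were other pseudocounts, filters, normalizations, variance priors, samples, fold minimums, probe sets, a replicate block and each array left out.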

Additional observations from a re-analysis of the deposited data

Results flagged for a closer look

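Gbp2b and Ifi202b differed in direction between the genotypes: every cisplatin-treated array lay above the untreated ones in Rb null cells and below them in wildtype cells. The cisplatin effect in Rb null minus that in wildtype cells was 3.76 (log2) for Gbp2b and 3.65 for Ifi202b. This difference was not tested, since it uses the arrays by which these genes were chosen.

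Some probe sets annotated to several p200 genes, which enter no count of members, also had every cisplatin-treated array above the untreated arrays of the same genotype. The arrays of 1425008_a_at overlapped in both genotypes. For 1448775_at the log2 difference in Rb null cells was 0.98, while its wildtype arrays overlapped. For 1451567_a_at it was 2.17 in Rb null and 0.55 in wildtype cells. For 1452348_s_at it was 0.73 in Rb null and 2.12 in wildtype cells. For 1452349_x_at it was 0.92 in Rb null and 3.65 in wildtype cells.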

How the results depend on the processing

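Between untreated genotypes 2 members were called (Ifi202b and Gbp2b), where 12.4% of all tested probe sets were called. Gbp2b passed the filter only through the cisplatin-treated Rb null arrays. The count was 1 with a pseudocount of 45.8 (the 25th percentile), and 1 of the 1 tested with a filter at 60%. It was 0 at a fold minimum of 2, and leaving out single arrays gave 1 to 2. For cisplatin in wildtype cells the same 2 members were called, where 26.7% of all tested probe sets were called. The count was 1 with the filter at 60%, 1 at a fold minimum of 2, and 2 to 2 without single arrays. With the pseudocount of 45.8 the median log2 difference of the 5 members was 1.88 for cisplatin in Rb null cells, 2.19 between genotypes after cisplatin and 2.25 for the difference of the cisplatin effects, and a pseudocount of 1 gave 3.50 between genotypes after cisplatin. Without single arrays these medians were 2.09 to 2.22, 2.64 to 2.92 and 2.41 to 2.97. Median centring moved the log2 of the highest over the next group of Ifi202b from 2.77 to 2.92. Without the filter 33 of 104 interferon genes were called for cisplatin in Rb null cells (31.7%, beside 28.7% of all probe sets). With it the count was 20 of 59 (33.9%, beside 36.7%). With rank correlation 0 and 1 of the 5 most similar genes were named again. With a filter set on the 9 arrays other than the cisplatin-treated Rb null ones, added after seeing the data, 1 member (Ifi202b) was tested and 1 called in each comparison. Of all probe sets, 12.3% were then called between untreated genotypes and 27% for cisplatin in wildtype cells. No called result changed sign, but estimates that were not called did: between untreated genotypes Gbp2 ran from -0.04 to 0.20 and Gbp3 from -0.365 to 0.12, and for cisplatin in wildtype cells Gbp2 from -0.17 to 0.07 and Gbp3 from -0.25 to 0.32. The fit of 2 groups for the interferon genes was added after seeing the data. Replicate labels did not pair the arrays (correlations of same-label deviations -0.186 to 0.109), and with a replicate block 2 members were called between untreated genotypes; across treatments the labels share no number, so no block could be fitted. Weak signals without detection calls limit what can be said of Ifi204 and of the relatives under the filter.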
